A study of Mus musculus with 14 samples.

Results

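The genes described here encode the proteins of the cytosolic and the mitochondrial ribosome. They were taken by symbol from a table of 43629 gene identifiers: Rpl or Rps followed by a number and at most 1 letter, Rplp0 to Rplp2, Rpsa, and Mrpl or Mrps followed by a number and at most 1 letter. Of 159 symbols that matched, 153 had at least 80 counts summed over all 8 RNA-seq libraries and are the members: 78 cytosolic (32 of the small and 46 of the large subunit) and 75 mitochondrial (28 small, 47 large). Among these symbols members were selected on the summed count and on no other measured value. The gene families themselves were chosen with earlier results of these data known. The members just inside the limit were Rpl24 with 210 counts and Mrpl14 with 545, and those just outside were Rpl3l with 23 and Rpl6l with 7. Of the other symbols left out, Rpl39l had 1 count, and Rpl10l, Mrpl53 and Mrps23 were listed at 0 in all 8 libraries. Mrpl53 and Mrps23 are used by most cells, so their 0 is not read here as a measured absence, and its cause was not tested.

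The RNA came from primary hippocampal cultures of wild-type C57BL6 mice, taken at postnatal day 0 to 1 and grown for 14 days in vitro in medium with 2% B27. All cultures received a treatment of 15 h: 4 the solvent alone, 0.1% DMSO (group CTRL), and 4 picrotoxin at 100 µM (group PTX), a blocker of GABA-A receptors that raises network activity by removing inhibition. The labels do not say whether the PTX cultures held the same solvent. A second assay, ChIP-seq for the chromatin reader L3mbtl1, used hippocampus of untreated C57BL6/129 mice of postnatal day 7 to 8. It had 3 wild-type and 3 L3mbtl1-/- samples and came with 1 list of 4677 peaks. The descriptions of all these samples name the list, but the list itself names no sample. The cultures hold neurons, glia and other cells, so a lower or higher level can come from fewer or more cells of a type or from less or more RNA per cell, and these cannot be told apart.

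Cytosolic ribosomes translate nuclear-encoded messages, and in neurons they work in the cell body as well as in dendrites and axons. The messages of their proteins usually begin at a cytosine followed by a run of pyrimidines, the 5′ TOP element, through which mTOR signalling and the protein Larp1 control how well they are translated. Mitochondrial ribosomes are assembled inside the organelle from RNAs of the mitochondrial genome and from proteins that are all encoded in the nucleus, and they make the core subunits of the respiratory chain. RNA-seq of total RNA measures the amount of a message, not its translation.

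The 8 libraries held 14524916 to 19498189 counts in genes, and 15959 genes were tested. A further 15.2% to 20.5% of counted alignments were at non-unique positions, most in PTX library 2, and stand on a line of their own in the tables, apart from the genes. Ribosomal protein genes have many near-identical processed copies in the genome, so the values below are uncertain for every cytosolic member. How many such reads belong to a given member was not measured. The strand setting of the counting is not given in the sources used here, so reads of an overlapping or antisense gene cannot be told apart from a member's own. All 12 excitatory and all 14 inhibitory neuron markers checked were present in every library, and markers of several cell types differed with treatment (adjusted p under 0.05 in the fit described below). Of the excitatory markers 2 rose and 8 fell (median log2 fold change -0.60), of the inhibitory markers 5 rose and 3 fell (0.28), and of 12 astrocyte markers 1 rose and 5 fell (-0.42). The summed astrocyte markers were at 6563 to 8729 CPM (counts scaled to library size) in CTRL and 4794 to 6566 CPM in PTX. The summed excitatory markers were at 969 to 1333 CPM and 1035 to 1319 CPM, and the inhibitory ones at 1398 to 1690 CPM and 1669 to 1930 CPM. PTX library 2 had the highest sum of microglia markers, 298 CPM against 54.8 to 202 CPM in the others. Both libraries numbered 1 had the highest sums of meningeal fibroblast markers, 783 and 700 CPM against 219 to 325 CPM. The part of these in any result below was not tested.

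Picrotoxin moved the ribosomal protein genes little. Of the 78 cytosolic members 8 rose and 1 fell, and of the 75 mitochondrial members 10 rose and 3 fell, at an adjusted p under 0.05 (edgeR quasi-likelihood test, Benjamini-Hochberg over all tested genes). These are 11.5% and 17.3% of the members, beside 39.2% of all 15959 tested genes (19.0% higher and 20.1% lower). No member changed 2-fold in either direction, beside 12.5% of all tested genes. The median log2 fold change (PTX over CTRL) was 0.14 over the cytosolic members and 0.02 over the mitochondrial members, against -0.03 over all tested genes. The median size of the change, without its sign, was 0.14, 0.17 and 0.33 in the same order. The median SE of the log2 fold change was 0.10, 0.12 and 0.14. Among tested genes of like level (mean CPM within the interquartile range of the cytosolic members, 114 to 235 CPM), 50.2% were called, and among those within the range of the mitochondrial members (17.4 to 38.5 CPM), 44.4%.

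**Figure D1:**
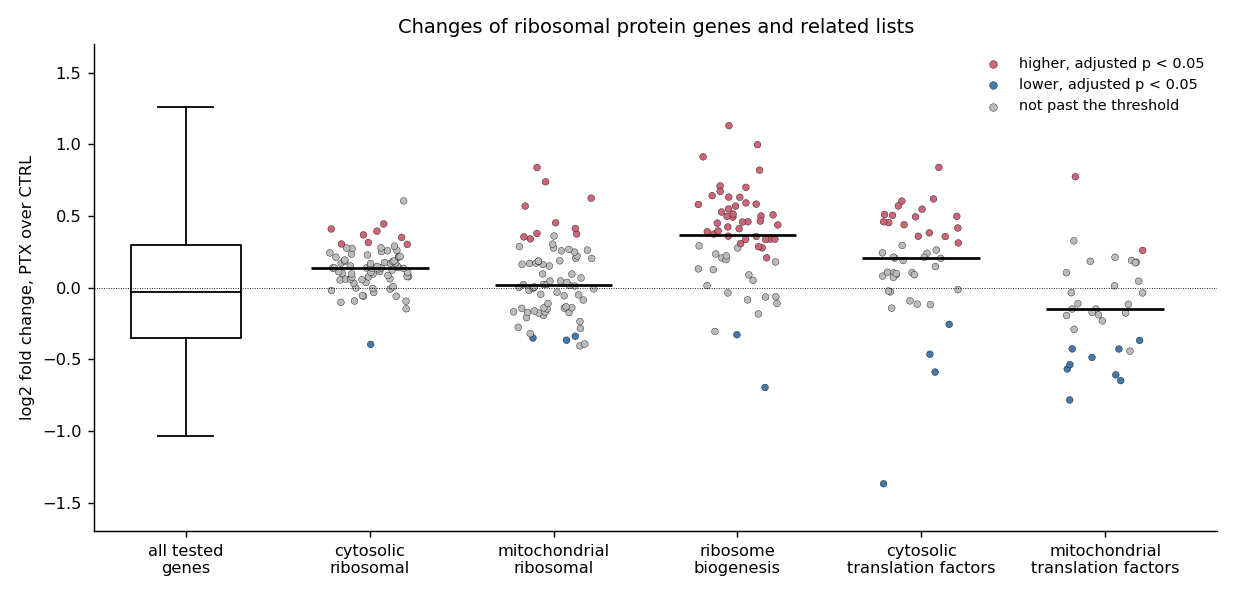
Log2 fold change (PTX over CTRL, vertical axis) of all 15959 tested genes (box: interquartile range, line: median, whiskers: 5th to 95th percentile) and of every gene of 5 lists (points; red higher, blue lower, grey not past adjusted p of 0.05; line: median of the list). The cytosolic members lie in a narrow band around their median of 0.14, the mitochondrial members spread to both sides of 0.02, and the ribosome biogenesis genes lie around 0.37.

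The same-numbered CTRL and PTX libraries deviated together from their group means, and with the replicate number as a block 22 cytosolic members (21 higher, 1 lower; 28.2%) and 28 mitochondrial members (19 higher, 9 lower; 37.3%) passed, beside 55.3% of all tested genes (25.7% higher, 29.6% lower). The counts also turned on single libraries. The cytosolic count was 3 without CTRL 3 and 4 without CTRL 4 (31.6% and 35.1% of all genes called), but 15 without CTRL 1 (36.3%), 26 without PTX 1 (37.6%) and 18 without PTX 4 (35.0%). The mitochondrial count went to 22 without PTX 2 (38.4%), of which 9 were higher and 13 lower. Without both libraries numbered 2 (34.6%) 6 cytosolic and 10 mitochondrial members passed. DESeq2, which called 40.4% of all genes, called 17 cytosolic members (16 higher) and 17 mitochondrial members (14 higher). With library totals in place of TMM scaling (40.0% of all genes), 3 cytosolic members were higher and 1 lower, and 8 mitochondrial members were higher and 6 lower. With RLE size factors the mitochondrial calls were 14 higher and 2 lower. The mitochondrial median was -0.03 with library totals and 0.05 with RLE factors, so its sign depends on the scaling. Over these scalings alone the cytosolic median stayed positive, from 0.08 to 0.17.

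The signs of the changes are given side by side for the classes, whose difference was not tested. Positive log2 fold changes were found for 65 of the 78 cytosolic members and 43 of the 75 mitochondrial members. The interquartile range of the cytosolic values was 0.06 to 0.22, and that of the mitochondrial values -0.14 to 0.21. A member was higher in PTX in 4 of 4 same-numbered pairs in 19 cytosolic and 24 mitochondrial cases, and lower in 4 of 4 in 1 and 15, where 29.0% of all tested genes were higher and 34.4% lower in every pair. The CTRL and PTX libraries did not overlap for 9 cytosolic members with PTX higher and 1 with PTX lower, and for 12 and 3 mitochondrial members (18.4% and 19.5% of all tested genes).

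**Figure D2:**
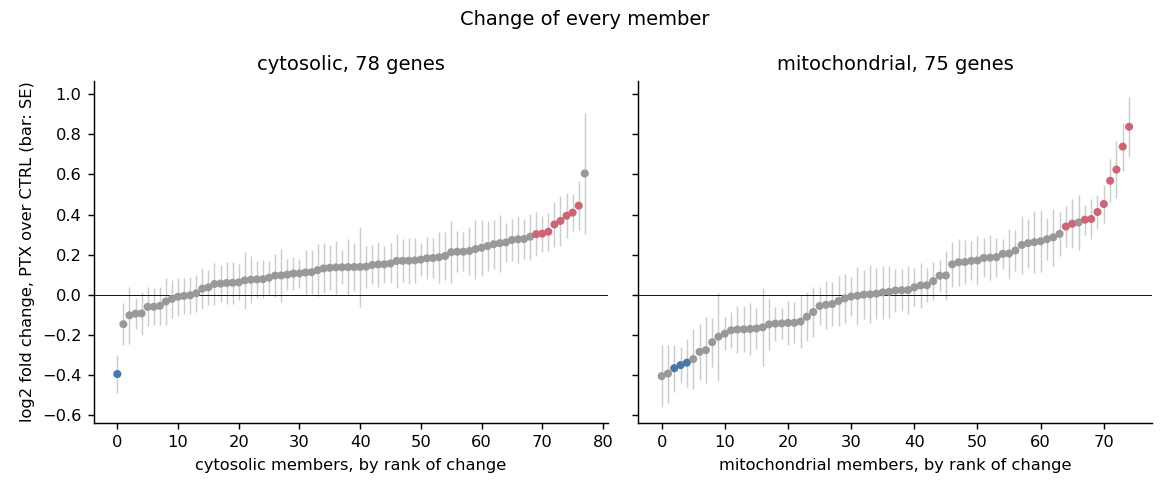
Log2 fold change (PTX over CTRL) with its SE (bars) for the 78 cytosolic members (left) and the 75 mitochondrial members (right), ordered by the change within each class. Red points rose and blue points fell at an adjusted p under 0.05. The topmost cytosolic point is Rpl24, the member with fewest counts, and its bar is the longest.

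The start sites of members that passed the test are shown first, because the pyrimidine run at the start is the shared feature by which cytosolic ribosomal protein messages are recognised. Each line gives 15 bases before and 15 bases from the start listed by RefSeq (GRCm38.p6, the assembly of mm10), in the direction of transcription, and capitals mark a run of at least 5 cytosines and thymines that begins with a cytosine within 5 bases of the start.
Rps6, chr4:86857353-86857382, minus strand: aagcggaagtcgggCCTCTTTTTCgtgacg
Rpl7a, chr2:26910792-26910821, plus strand: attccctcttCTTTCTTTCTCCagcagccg
Rpl15, chr14:18270972-18271001, minus strand: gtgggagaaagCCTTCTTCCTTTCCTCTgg
Rpl18, chr7:45718056-45718085, plus strand: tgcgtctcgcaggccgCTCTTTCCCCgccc
Rps3, chr7:99483695-99483724, minus strand: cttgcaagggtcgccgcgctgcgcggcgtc
Rpl4, chr9:64173372-64173401, plus strand: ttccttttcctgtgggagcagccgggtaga
Mrps33, chr6:39810922-39810951, minus strand: ttccgcctctctcctgCTCTCTggagctgg
Mrpl22, chr11:58171649-58171678, plus strand: ccggcgtttgatcccggaggCTTCCgtagg
Mrps36, chr13:100744645-100744674, minus strand: ttatagctcctcagtgacatcacacaggct
Rps6, Rpl7a, Rpl15 and Rpl18 show the long cytosolic run, and Rpl15 fell while the other 3 rose. In Rps3 and Rpl4, which also rose, no such run lies at the listed start, although the Rpl4 window holds a pyrimidine stretch that ends a few bases before it. The mitochondrial genes Mrps33 and Mrpl22 hold short runs, and Mrps36 none.

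Among small subunit proteins of the cytosolic ribosome, Rps3, Rps6 and Rps27l rose. Rps3 (ENSMUSG00000030744) sits where the message enters the small subunit and also has a role in DNA repair. Its level was 314, 313, 284 and 270.2 CPM in CTRL libraries 1 to 4 and 347, 494, 418 and 348 CPM in PTX libraries 1 to 4. All PTX libraries lay above all CTRL libraries and PTX 2 was the highest (1.36-fold, log2 fold change 0.44, SE 0.12, adjusted p = 0.016). Rps6 (ENSMUSG00000028495), the protein whose phosphorylation by the S6 kinases is the usual readout of mTOR activity, was at 135, 154, 129 and 124 CPM under DMSO and 159, 217, 175 and 149 CPM under picrotoxin. PTX was the higher of the pair 4 of 4 times, but CTRL 2 lay above PTX 4, so the groups overlapped (1.29-fold, log2 fold change 0.37, SE 0.12, adjusted p = 0.0385). Rps27l (ENSMUSG00000036781), a paralog of Rps27 that p53 is known to induce, was at 20.6, 20.8, 22.6 and 22.9 CPM under DMSO and 24.0, 28.8, 26.8 and 27.7 CPM under picrotoxin, with no overlap (1.24-fold, log2 fold change 0.30, SE 0.09, adjusted p = 0.0224). Its paralog Rps27 was at 49.8 ± 5.47 CPM under DMSO and 56.0 ± 9.47 CPM under picrotoxin (mean ± SD of 4 libraries, as in all pairs of means below) and did not pass (adjusted p = 0.357). The difference between the paralogs was not tested.

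Among large subunit proteins 5 rose and 1 fell. Rpl4 (ENSMUSG00000032399), which reaches into the tunnel through which the new chain leaves the ribosome, was at 488, 497, 459 and 419 CPM in CTRL libraries 1 to 4 and 570.3, 684, 649 and 573 CPM in PTX libraries 1 to 4. No library of one group overlapped with the other, and the value was 1.33-fold, log2 fold change 0.41, SE 0.09, adjusted p = 0.0061. Rpl18 (ENSMUSG00000059070) was at 60.4, 61.4, 56.7 and 54.0 CPM under DMSO and 63.7, 90.1, 82.2 and 69.6 CPM under picrotoxin, again without overlap (1.31-fold, log2 fold change 0.39, SE 0.11, adjusted p = 0.0195). Rpl41 (ENSMUSG00000093674), a very short peptide at the contact between the subunits, rose from 233 ± 20.7 CPM under DMSO to 297 ± 43.3 CPM under picrotoxin (1.27-fold, log2 fold change 0.35, SE 0.11, adjusted p = 0.0323). Rpl7a rose from 230.2 ± 19.5 CPM under DMSO to 286 ± 27.1 CPM under picrotoxin (1.24-fold, log2 fold change 0.31, SE 0.09, adjusted p = 0.024), and Rpl8 (chromosome 15, 76904071 to 76906318), a protein near the peptidyl transferase centre, from 177 ± 11.3 CPM under DMSO to 219 ± 32.4 CPM under picrotoxin (1.23-fold, log2 fold change 0.30, SE 0.11, adjusted p = 0.0495). These changes are between 1.23-fold and 1.33-fold, and in all 5 genes PTX was higher in 4 of 4 pairs.

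Rpl15 was the only cytosolic member that fell. Rpl15 (ENSMUSG00000012405), a large subunit protein needed for the assembly of that subunit, was at 260.5, 221, 212 and 195 CPM in CTRL libraries 1 to 4 and 167, 175, 172 and 163 CPM in PTX libraries 1 to 4. Every PTX library lay below every CTRL library, and the PTX libraries were closer to each other (SD 5.35 CPM) than the CTRL libraries (SD 27.7 CPM). The level was 0.760-fold, log2 fold change -0.40, SE 0.09, adjusted p = 0.00775, a 1.31-fold fall. Its start carries the longest pyrimidine run of those marked above, 17 bases, beside 12 marked for Rpl7a. The stretch of Rpl7a, which rose, continues upstream of the marked bases. Counted within 25 bases of the start it is longer, 19 bases.

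Of the 9 cytosolic calls, those of Rpl4 and Rpl15 held without any single library (adjusted p 1.82e-05 to 0.0243 and 0.000521 to 0.0403 over all alternatives). The others were lost without 1 or more libraries, named here with the adjusted p without each. For Rps3 it was CTRL 3 (0.0505), and its adjusted p over all alternatives ran from 0.000505 to 0.0505. For Rps6 these were CTRL 3 (0.103), CTRL 4 (0.0986) and PTX 2 (0.0632), with a range of 0.000552 to 0.103, and for Rps27l only CTRL 2 (0.0616), with a range of 0.00358 to 0.099. Rpl7a was lost without CTRL 3 (0.0607) and CTRL 4 (0.0643) and Rpl18 without CTRL 3 (0.0564) and CTRL 4 (0.0545), with ranges of 0.000728 to 0.0643 and 0.00146 to 0.0564. Rpl41 was lost without CTRL 3 (0.0883), CTRL 4 (0.086) and PTX 2 (0.0548) and Rpl8 without CTRL 2 (0.0509), CTRL 3 (0.106), CTRL 4 (0.123) and PTX 2 (0.0723), with ranges of 0.000487 to 0.0883 and 0.00263 to 0.123. Library totals alone also ended the calls of Rps6 (0.0798), Rps27l (0.0823), Rpl7a (0.0544), Rpl41 (0.0646) and Rpl8 (0.11), testing every gene with at least 1 count those of Rps27l (0.0697) and Rpl8 (0.0742), and leaving out both libraries numbered 2 those of Rps27l (0.099), Rpl18 (0.0553) and Rpl8 (0.0806).

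**Figure D3:**
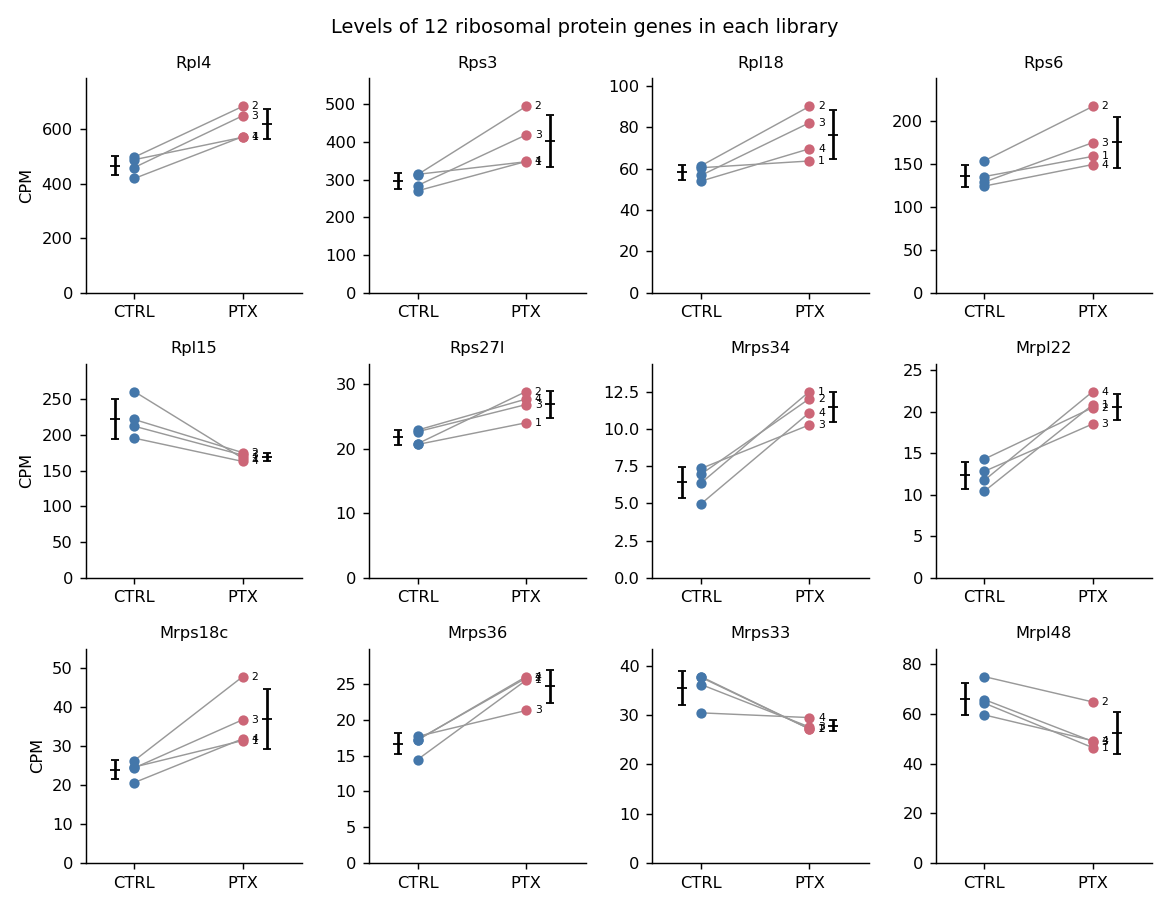
Level in CPM (vertical axis from 0) of 12 members in each CTRL (blue) and PTX (red) library, with lines joining libraries of the same number, the number beside the PTX point, and the mean ± SD of each group as bars (n = 4). Rps6 and Mrpl48 overlap between the groups, and the other 10 genes do not. PTX library 2 is the highest point for Rpl4, Rps3, Rpl18, Rps6, Rps27l and Mrps18c.

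With the replicate block 13 further cytosolic members passed, and all of them were higher. Among those of smallest p were Rpl10, Rpl19, Rpl35, Rpl28, Rps26, Rpl26, Rpl7, Rpl23 and Rplp2, with log2 fold changes of 0.21 to 0.29. Rpl19 and Rpl28 were the nearest without the block. Rpl28 was at 25.8, 32.1, 32.4 and 27.0 CPM under DMSO and 32.6, 34.9, 37.0 and 37.9 CPM under picrotoxin, without overlap (adjusted p = 0.0512, and 0.00963 with the block). Rpl19 was at 146, 159, 161 and 143 CPM under DMSO and 164, 215, 175 and 177 CPM under picrotoxin, also without overlap (adjusted p = 0.0565, and 0.00676 with the block).

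Rpl5, Rpl11 and Rpsa, which have known roles outside the ribosome, did not pass. Rpl5 and Rpl11, which with 5S RNA bind the p53 regulator Mdm2, were at 609 ± 30.8 CPM under DMSO and 669 ± 53.7 CPM under picrotoxin (log2 fold change 0.14, SE 0.08, adjusted p = 0.234) and at 136 ± 6.34 CPM under DMSO and 151 ± 18.7 CPM under picrotoxin (log2 fold change 0.15, SE 0.10, adjusted p = 0.262). The stalk proteins Rplp0, Rplp1 and Rplp2, which recruit the elongation factors, had log2 fold changes of 0.17, -0.06 and 0.21. Of these Rplp2 passed with the replicate block (adjusted p = 0.0268) and the others did not (0.0855 and 0.521). Rpsa, the small subunit protein also known as the laminin receptor, took the most counts of the class, not scaled to length. It was at 703, 645, 704 and 602 CPM under DMSO and 594, 725, 648 and 579 CPM under picrotoxin, with overlapping groups (log2 fold change -0.06, adjusted p = 0.67). Rpl5 and Rpl3, next by counts, did not pass either (adjusted p = 0.331 for Rpl3). Rpl24 had the largest log2 fold change of the class, 0.61, at 1.53, 1.23, 1.25 and 0.980 CPM under DMSO and 1.34, 2.95, 1.93 and 1.40 CPM under picrotoxin, with an SE of 0.30 and an adjusted p of 0.145. The paralog pairs of Rpl3, Rpl10 and Rpl39 could not be compared, because Rpl3l, Rpl10l and Rpl39l were below the count limit.

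The mitochondrial small subunit had the largest share of calls, 7 of 28 members (5 higher, 2 lower), against 6 of 47 in the large subunit (12.8%; 5 higher, 1 lower). Both shares are under the 39.2% of all tested genes. With the replicate block they were closer, 39.3% of the small and 36.2% of the large subunit members, beside 55.3% of all tested genes. The difference between the subunits was not tested. Mrps34 (ENSMUSG00000038880, chromosome 17, 24895120 to 24896289), a protein found in the mitochondrial and not in the bacterial small subunit, had the largest change of all 153 members. Its level was 6.37, 6.96, 7.34 and 4.96 CPM in CTRL libraries 1 to 4 and 12.5, 12.0, 10.3 and 11.1 CPM in PTX libraries 1 to 4. The lowest PTX library was above the highest CTRL library (1.79-fold, log2 fold change 0.84, SE 0.15, adjusted p = 0.00162). Mrps18c (ENSMUSG00000016833) was at 24.6, 26.3, 24.4 and 20.6 CPM under DMSO and 31.5, 47.9, 36.8 and 31.9 CPM under picrotoxin, again without overlap and with PTX 2 the highest (1.54-fold, log2 fold change 0.62, SE 0.14, adjusted p = 0.00634). It is 1 of 3 paralogs in mammals, and the other two did not pass. Mrps18a was at 21.1 ± 2.13 CPM under DMSO and 23.8 ± 3.28 CPM under picrotoxin (adjusted p = 0.298) and Mrps18b at 13.9 ± 1.11 CPM under DMSO and 14.8 ± 1.88 CPM under picrotoxin (adjusted p = 0.573); the difference between the paralogs was not tested.

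Mrps36, Mrps22 and Mrps7 rose by less. Mrps36 (ENSMUSG00000061474), now usually assigned to the 2-oxoglutarate dehydrogenase complex as Kgd4 and not to the ribosome, was at 14.4, 17.2, 17.7 and 17.2 CPM under DMSO and 25.5, 25.8, 21.3 and 26.0 CPM under picrotoxin. The groups did not overlap (1.48-fold, log2 fold change 0.57, SE 0.11, adjusted p = 0.00202). Because members were taken by symbol, Mrps36 is included in all counts of the mitochondrial class and its small subunit. Mrps22, a protein specific to mitochondrial ribosomes, rose from 34.4 ± 4.08 CPM under DMSO to 44.7 ± 2.71 CPM under picrotoxin (1.30-fold, log2 fold change 0.38, SE 0.10, adjusted p = 0.0118). Mrps7, a homolog of a bacterial protein that begins the assembly of the small subunit head, rose from 33.3 ± 1.71 CPM under DMSO to 42.1 ± 5.44 CPM under picrotoxin (1.27-fold, log2 fold change 0.34, SE 0.10, adjusted p = 0.0216). PTX was higher in 4 of 4 pairs in each of these 3 genes.

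Mrps33 and Mrps27 fell. Mrps33 (ENSMUSG00000029918) was at 37.8, 37.6, 36.2 and 30.4 CPM under DMSO and 27.2, 27.2, 27.6 and 29.5 CPM under picrotoxin, and CTRL 4 was lower than the other CTRL libraries but still above all PTX libraries (0.784-fold, log2 fold change -0.35, SE 0.09, adjusted p = 0.0118). Mrps27 (ENSMUSG00000041632), which belongs to the pentatricopeptide repeat proteins that bind RNA, was at 14.7, 15.4, 13.5 and 13.6 CPM under DMSO and 11.2, 11.0, 9.51 and 12.6 CPM under picrotoxin. The groups did not overlap (0.776-fold, log2 fold change -0.37, SE 0.12, adjusted p = 0.032).

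In the mitochondrial large subunit Mrpl22, Mrpl17, Mrpl39, Mrpl9 and Mrpl38 rose and Mrpl48 fell. Mrpl22 (ENSMUSG00000020514), which lines the exit tunnel, was at 10.4, 14.3, 12.8 and 11.8 CPM in CTRL libraries 1 to 4 and 20.9, 20.5, 18.6 and 22.4 CPM in PTX libraries 1 to 4. The lowest PTX library was above the highest CTRL library (1.67-fold, log2 fold change 0.74, SE 0.12, adjusted p = 0.00085). Mrpl17, another protein around the tunnel exit, was at 22.2, 25.1, 25.5 and 23.2 CPM under DMSO and 31.0, 37.1, 31.2 and 32.1 CPM under picrotoxin, without overlap (1.37-fold, log2 fold change 0.45, SE 0.09, adjusted p = 0.00342). Mrpl39, a mitochondria-specific protein, rose from 52.6 ± 1.89 CPM under DMSO to 70.0 ± 7.11 CPM under picrotoxin (1.33-fold, log2 fold change 0.41, SE 0.09, adjusted p = 0.00372), and Mrpl9, a homolog of a bacterial protein, from 54.7 ± 2.44 CPM under DMSO to 71.0 ± 4.17 CPM under picrotoxin (1.30-fold, log2 fold change 0.37, SE 0.07, adjusted p = 0.00296). Mrpl38 (chromosome 11, 116131817 to 116138868) rose from 13.4 ± 1.23 CPM under DMSO to 17.1 ± 2.15 CPM under picrotoxin (1.28-fold, log2 fold change 0.35, SE 0.12, adjusted p = 0.0419). Mrpl48 (ENSMUSG00000030706) was at 64.3, 75.01, 65.8 and 59.6 CPM under DMSO and 46.4, 64.8, 48.9 and 49.2 CPM under picrotoxin. It was lower in PTX in 4 of 4 pairs, but PTX 2 lay above CTRL 1 and CTRL 4 (0.791-fold, log2 fold change -0.34, SE 0.12, adjusted p = 0.0467).

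Of the 13 mitochondrial calls, 8 held without any single library: Mrps34, Mrps18c, Mrps36, Mrps22, Mrpl22, Mrpl17, Mrpl39 and Mrpl9. For Mrps22 the adjusted p was 0.058 without both libraries numbered 2, its highest over the alternatives, where the range began at 0.00094. Mrps33 was lost without PTX 3 (0.0521) and Mrps7 without CTRL 3 (0.0548) and CTRL 4 (0.0622), with ranges of 0.00382 to 0.0624 and 0.00274 to 0.0622 over all alternatives. Mrpl38 was lost without CTRL 2 (0.0839), CTRL 3 (0.0759), CTRL 4 (0.11) and PTX 2 (0.1), with a range of 0.00893 to 0.147. Mrps27 was lost without CTRL 1 (0.0974), CTRL 2 (0.0741), CTRL 3 (0.0541), PTX 1 (0.0725), PTX 2 (0.053) and PTX 3 (0.152), with a range of 0.00893 to 0.152. Mrpl48 was lost without CTRL 1 (0.0829), CTRL 2 (0.0869), CTRL 3 (0.0915), PTX 1 (0.146), PTX 3 (0.167) and PTX 4 (0.159), with a range of 0.000964 to 0.167. Library totals alone ended the calls of Mrps7 (0.0546) and Mrpl38 (0.0784), RLE factors that of Mrpl48 (0.0562), and testing every gene with at least 1 count those of Mrps27 (0.0714) and Mrpl38 (0.0935).

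The replicate block added 9 mitochondrial members that were higher and 6 that were lower. The 10 of smallest p were Mrps30, Mrpl54, Mrpl4, Mrps6, Mrpl30, Mrpl32 and Mrpl1, which were higher, and Mrpl11, Mrpl57 and Mrpl23, which were lower. Mrpl11, a homolog of a bacterial protein at the stalk base, was at 39.0, 36.8, 32.9 and 29.9 CPM under DMSO and 22.4, 34.9, 25.1 and 22.1 CPM under picrotoxin, and only PTX 2 overlapped with CTRL (adjusted p = 0.0625, and 0.00355 with the block). Its log2 fold change, -0.41, was the largest fall of the 153 members. Mrpl54 was at 15.1, 16.3, 14.5 and 12.6 CPM under DMSO and 18.6, 22.6, 18.8 and 15.2 CPM under picrotoxin, where PTX 4 overlapped with CTRL (adjusted p = 0.0601, and 0.00415 with the block). Mrps25 was at 77.2, 66.1, 66.7 and 66.5 CPM under DMSO and 59.7, 65.7, 58.7 and 57.5 CPM under picrotoxin, without overlap, and passed only with the block (0.0914 without it and 0.0379 with it).

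The summed counts of each class were compared as a share of all gene counts in a library, with no test. The cytosolic members took 1.48%, 1.66%, 1.53% and 1.43% of gene counts in CTRL libraries 1 to 4 and 1.41%, 1.85%, 1.64% and 1.51% in PTX libraries 1 to 4. The groups overlapped, with 1.52 ± 0.0953% and 1.60 ± 0.191% (SD, n = 4 each), and without PTX 2 the difference of 0.0784 percentage points became -0.00407. These shares are of gene counts without TMM scaling. With TMM-scaled sizes, as in all CPM values, the cytosolic sums were 15288, 16105, 14851 and 13606 CPM in CTRL. In PTX they were 14598, 18366, 17086 and 15340 CPM, also with overlap. The mitochondrial members took 0.219%, 0.236%, 0.218% and 0.211% in CTRL and 0.206%, 0.262%, 0.207% and 0.208% in PTX. PTX 2 was the highest library in both shares, and the other 3 PTX libraries were below all CTRL libraries in the mitochondrial share. That order depends on the scaling. With TMM-scaled sizes the mitochondrial sums were 2258.8, 2295.3, 2118.8 and 2005.0 CPM in CTRL. In PTX they were 2129.5, 2596.5, 2157.0 and 2121.0 CPM, higher in 3 of 4 pairs with overlapping groups. The ratio of mitochondrial to cytosolic counts was 0.148, 0.143, 0.143 and 0.147 in CTRL and 0.146, 0.141, 0.126 and 0.138 in PTX, lower in PTX in 4 of 4 pairs with overlapping groups.

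**Figure D4:**
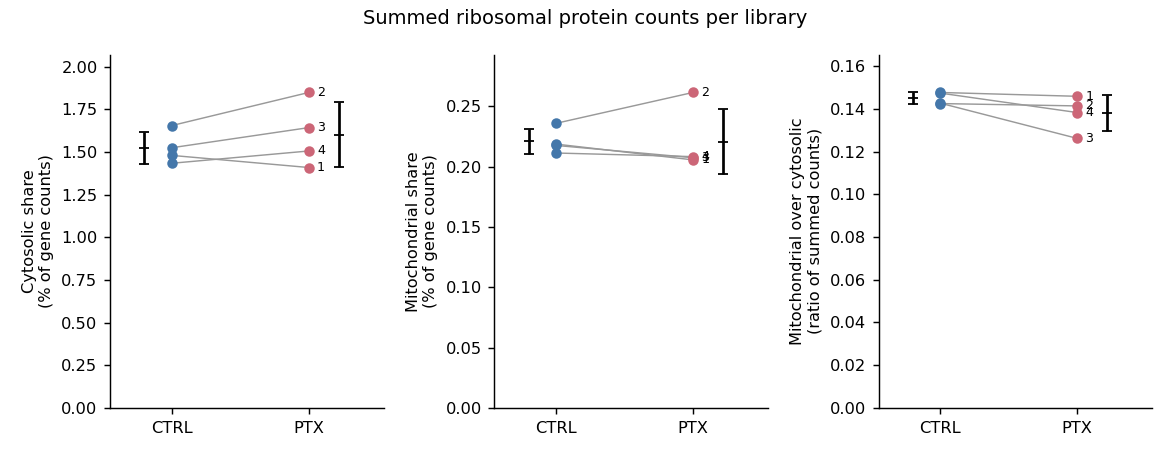
Summed counts of the 78 cytosolic and 75 mitochondrial members as a percent of all gene counts (left and middle), and the ratio of the mitochondrial to the cytosolic sum (right), in each CTRL (blue) and PTX (red) library. Lines join libraries of the same number, and bars give the mean ± SD (n = 4). PTX library 2 has the highest share in both classes, and the ratio is lower in PTX in all 4 pairs.

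PTX library 2 was the highest of the 8 libraries for 50 of 78 cytosolic members (64.1%) and 48 of 75 mitochondrial members (64.0%), against 15.4% of all tested genes. CTRL library 4 was the lowest for 47 cytosolic members (60.3%) and 20 mitochondrial members (26.7%), against 16.4% of all tested genes. PTX 2 also had the largest share of non-unique alignments, 20.5%, and the highest sum of microglia markers, and the part of either in its ribosomal levels was not tested.

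Lists of genes that build and serve the ribosome were counted in the same fit, and their difference from the members was not tested. Of 62 ribosome biogenesis genes, 41 rose and 2 fell, with a median log2 fold change of 0.37, beside the 39.2% of all tested genes called. Eif6, which keeps the new large subunit from joining too early, was at 19.8, 21.1, 19.0 and 19.7 CPM under DMSO and 39.4, 36.3, 36.4 and 37.6 CPM under picrotoxin (log2 fold change 0.91, SE 0.08, adjusted p = 1.59e-05). Rrp1b, a nucleolar processing factor, was at 18.1 ± 1.29 CPM under DMSO and 36.2 ± 2.59 CPM under picrotoxin (log2 fold change 1.00, SE 0.09, adjusted p = 2.48e-05), and Nmd3, the export adapter of the large subunit, at 45.8 ± 3.47 CPM under DMSO and 72.9 ± 3.26 CPM under picrotoxin (log2 fold change 0.67, SE 0.08, adjusted p = 0.00012). Neither group overlapped with the other in these 3 genes. The 2 that fell, named after their values were seen, were Ubtf, a factor of RNA polymerase I (-0.70), and Wdr12 (-0.33). The call of Wdr12 was lost without CTRL 1, PTX 1 or PTX 4, and its adjusted p over the alternatives ran from 0.00342 to 0.0915.

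Of 46 cytosolic translation factors 17 rose and 4 fell (45.7%, near the 39.2% of all tested genes), with a median of 0.21. Eif3d (log2 fold change 0.84, SE 0.08, adjusted p = 2.86e-05) and Eif3c (log2 fold change 0.50, SE 0.07, adjusted p = 0.000343), subunits of the initiation factor that binds the small subunit, rose. Eef1a2, the elongation factor form of mature neurons, fell (log2 fold change -1.37, SE 0.17, adjusted p = 0.000164). Of the 27 tested genes of mTOR signalling and TOP message control 6 rose and 6 fell (44.4%, also near that background), with a median of -0.11. Rheb, the activator of mTOR complex 1, was at 100.2, 109, 85.4 and 84.0 CPM under DMSO and 353, 293, 366 and 298 CPM under picrotoxin (3.46-fold, log2 fold change 1.79, SE 0.12, adjusted p = 3.91e-06). Sesn2, a brake on the same complex, rose as well (log2 fold change 1.66, SE 0.11, adjusted p = 4.79e-06), and its relative Sesn1 fell (log2 fold change -1.19, SE 0.15, adjusted p = 0.000204). Larp1, the TOP binding protein, named after its value was seen, rose from 62.1 ± 6.61 CPM under DMSO to 86.6 ± 8.50 CPM under picrotoxin (log2 fold change 0.48, SE 0.10, adjusted p = 0.00486). Rps6kb2 was listed at 0 in all 8 libraries.

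On the mitochondrial side 2 of 33 translation factors and tRNA synthetases rose and 9 fell (33.3%, beside 39.2% of all tested genes, 20.1% lower), with a median of -0.15. Guf1, a translation factor of the organelle, was at 150.2, 129, 113 and 122 CPM under DMSO and 77.9, 73.2, 75.01 and 72.5 CPM under picrotoxin (log2 fold change -0.78, SE 0.10, adjusted p = 0.000143), without overlap. Vars2, the valyl-tRNA synthetase, fell (log2 fold change -0.61, SE 0.11, adjusted p = 0.00146), and the release factor Mtrf1l rose (log2 fold change 0.77, SE 0.10, adjusted p = 0.000222). The other rise was Kars (0.26), whose enzyme works in both compartments and which was named after its value was seen; its call was lost without CTRL 2, CTRL 3, CTRL 4 or PTX 2 (adjusted p over the alternatives 0.00295 to 0.106). Of 25 genes of mitochondrial ribosome assembly and transcription 5 rose and 3 fell (8 called of 25, a smaller share than the same 39.2%), among them Mrm1, a methyltransferase of the large ribosomal RNA (log2 fold change 1.14, SE 0.18, adjusted p = 0.000637), and the assembly factors Mtg1 (log2 fold change -1.03, SE 0.20, adjusted p = 0.0026) and Mettl17 (log2 fold change -0.73, SE 0.11, adjusted p = 0.000643).

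Of 11 tested ribosomal proteins whose names fall outside the symbol rule, 4 rose and 1 fell (45.5%, near the 39.2% of all tested genes). Rpl22l1, the paralog of Rpl22, was at 29.5, 29.3, 23.5 and 21.2 CPM under DMSO and 58.5, 45.9, 60.7 and 46.2 CPM under picrotoxin, more than any member changed (2.04-fold, log2 fold change 1.03, SE 0.14, adjusted p = 0.000295). Rpl36al, the paralog of Rpl36a, was at 37.8 ± 4.53 CPM under DMSO and 58.9 ± 5.54 CPM under picrotoxin (log2 fold change 0.64, SE 0.11, adjusted p = 0.000942). Ptcd3, a pentatricopeptide protein of the mitochondrial small subunit, fell from 108 ± 11.5 CPM under DMSO to 81.2 ± 5.88 CPM under picrotoxin (log2 fold change -0.41, SE 0.10, adjusted p = 0.00713). The remaining rises, named after their values were seen, were Rpl7l1 (0.37) and Chchd1 (0.43), and that of Chchd1 was lost without CTRL 3 or CTRL 4 (adjusted p over the alternatives 0.00163 to 0.0674).

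The promoter table of RefSeq (250 bases before and 50 bases from each listed start) held 123 members, 57 cytosolic and 66 mitochondrial, and 12 of them had more than 1 listed start. A gene counts as holding a feature if any of its starts does. A pyrimidine run of at least 5 bases at the start, as defined above, was found in 28 cytosolic members (49.1%), 17 mitochondrial members (25.8%) and 21.2% of all 27025 genes in the table. Runs of at least 8 bases were found in 35.1%, 3.03% and 5.17% in the same order. Of the 28 cytosolic members with a run 4 rose and 1 fell, with a median of 0.17 (log2), and of the 29 without one 3 rose, with a median of 0.13. Of the 17 mitochondrial members with a run 3 rose and 3 fell (Mrpl48, Mrps27 and Mrps33), with a median of -0.03, and of the 49 without one 5 rose and none fell, with a median of 0.01. These counts stand beside 39.2% of all tested genes called, and the differences were not tested. A matched run describes the letters at the listed start only, and a start listed a few bases away can hide one. Within 25 bases of the start the share was 86.0% of cytosolic members, 68.2% of mitochondrial members and 59.3% of all genes. A wider search finds more runs in every group, and the part of shifted starts in this was not tested.

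Members of both classes shared another feature, the Ets core CCGGAAG, read by factors such as Gabpa, searched on both strands. It was present in 42.1% of cytosolic and 34.8% of mitochondrial members and in 9.93% of all genes (12.9% of protein-coding genes). It is shown here for some of the called members that hold it, in the direction of the gene. The core or its reverse complement is in capitals, with up to 10 bases on each side.
Rps6, chr4:86857442-86857468, gene on the minus strand: taatctacgcCCGGAAGtaacgcccct
Rpl15, chr14:18271127-18271153, gene on the minus strand: gggagagcatCCGGAAGcggcgggctg
Rpl15, chr14:18271032-18271058, gene on the minus strand: caatgccccaCCGGAAGgagggtcgcc
Rpl41, chr10:128549208-128549234, gene on the minus strand: agtaaggcagCCGGAAGtcgctgtctc
Mrpl22, chr11:58171601-58171627, gene on the plus strand: ttttccggtcCCGGAAGccggcctcgg
Mrps22, chr9:98601680-98601700, gene on the minus strand: acctctcgagCCGGAAGttgc
Mrps18c, chr5:100798593-100798619, gene on the plus strand: ggtcacgtgaCTTCCGGcccgggaagc
Mrps27, chr13:99344728-99344754, gene on the plus strand: ggtaggaccaCTTCCGGcggaggcggg
The core of Mrps22 begins 11 bases before the start, and those of Rpl41 and Mrpl22 lie 56 and 53 bases before it. Of the genes shown, Rpl15 and Mrps27 fell and the others rose, so the core was present on both sides. Called members with a core that are not shown are Mrpl17 and Rps27l, which rose, and Mrpl48 and Mrps33, which fell. Of the 24 cytosolic members with a core 3 rose and 1 fell, and of the 33 without 4 rose. Of the 23 mitochondrial members with a core 4 rose and 3 fell, and of the 43 without 4 rose.

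The other motifs were searched in the same 300 bases. The YY1 motif AAGATGGC (both strands) was in 8.77% of cytosolic members, 18.2% of mitochondrial members and 3.19% of all genes. The NRF1 core GCGCATGC (both strands), named for a factor known to drive nuclear genes of mitochondrial proteins, was in 5.26%, 10.6% and 3.05%, and followed by GC, the full palindrome, in 3.51%, 4.55% and 1.07%. Of the 7 mitochondrial members with the core, Mrpl9, Mrpl17, Mrpl22 and Mrpl39 rose and Mrpl10, Mrpl32 and Mrps18b were not called, and only Mrpl9 and Mrpl39 of the called members held the palindrome. Of the 59 mitochondrial members without the core 4 rose and 3 fell, none of the 3 cytosolic members with it (Rpl5, Rpl10a and Rpl37a) was called, and 39.2% of all tested genes were. The difference was not tested. The E-box CACGTG (both strands) was in 10.5%, 7.58% and 8.09%, and TATAAA (strand of the gene) in 8.77%, 6.06% and 9.77%. Matches of different features overlapped in 3 members: an Ets core with a pyrimidine run in Mrpl52 and Rpl34, and a YY1 motif with a run in Rps15a. A match is no measure of binding, and no match says only that these letters are missing from these 300 bases.

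L3mbtl1 peaks lay within 2000 bp of a gene end for 34 members (22.2%), 18 cytosolic (23.1%) and 16 mitochondrial (21.3%), beside 26.0% of the 14740 tested genes with a position. These were 39 peaks, of which 15 scored above the median of the list. Their median score was 9.7, against 10.69 over all 4677 peaks, and their median length 392 bp, against 747 bp. The peaks were called on hippocampus of young mice and the counts come from cultures, and no wild-type against L3mbtl1-/- signal was compared here. For 16 of the 34 members a peak was also within 2000 bp of an end of another protein-coding gene, so it cannot be assigned to the member alone.

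The sequences before the start of 3 members are shown, the called genes Rps27l and Mrps7 and the gene with the highest peak score. Each line gives the 250 bases before the listed start in the direction of transcription, with the bases under a peak in capitals.
Rps27l, chr9:66945836-66946085, plus strand: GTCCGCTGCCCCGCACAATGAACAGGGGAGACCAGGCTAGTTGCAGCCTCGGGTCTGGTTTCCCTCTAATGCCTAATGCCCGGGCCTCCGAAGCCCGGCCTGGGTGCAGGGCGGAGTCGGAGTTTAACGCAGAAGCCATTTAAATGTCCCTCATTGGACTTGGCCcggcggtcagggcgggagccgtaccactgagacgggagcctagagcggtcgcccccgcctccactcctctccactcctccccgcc
Mrps7, chr11:115603890-115604139, plus strand: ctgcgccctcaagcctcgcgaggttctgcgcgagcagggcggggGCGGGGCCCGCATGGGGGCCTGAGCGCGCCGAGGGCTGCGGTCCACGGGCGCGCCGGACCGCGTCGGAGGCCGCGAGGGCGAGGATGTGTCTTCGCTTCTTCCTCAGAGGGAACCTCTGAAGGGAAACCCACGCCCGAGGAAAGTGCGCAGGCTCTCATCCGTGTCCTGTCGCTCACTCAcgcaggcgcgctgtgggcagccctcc
Mrpl30, chr1:37890227-37890476, plus strand: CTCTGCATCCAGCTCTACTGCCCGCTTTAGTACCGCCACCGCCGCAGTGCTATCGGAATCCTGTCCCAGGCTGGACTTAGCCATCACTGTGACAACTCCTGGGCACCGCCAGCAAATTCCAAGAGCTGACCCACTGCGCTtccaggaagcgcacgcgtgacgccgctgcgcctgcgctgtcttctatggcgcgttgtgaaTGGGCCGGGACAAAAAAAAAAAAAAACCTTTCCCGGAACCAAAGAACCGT
Mrpl30 has the highest score of all members' peaks. The peak of Rps27l (chr9:66945643-66946000, score 8.34) covers 165 of the 250 bases and ends 86 bases before the start. The annotated gene (chr9:66944624-66949522) begins upstream of this listed start, and the peak lies inside the annotated gene. Mrps7 has a peak from 206 to 27 bases before its start (chr11:115603934-115604113, score 11.45), with a weaker one further upstream (chr11:115603408-115603850, score 8.29), and shares both with the neighbouring gene Gga3. Mrpl30 has 3 peaks, the first of which (chr1:37889768-37890366) has a score of 23.23, rank 92 of the list, and shares them with Mitd1. The level of Mrpl30 was 54.7, 50.5, 42.9 and 38.0 CPM under DMSO and 52.4, 68.9, 51.8 and 47.9 CPM under picrotoxin, with overlapping groups (adjusted p = 0.204, and 0.0229 with the replicate block).

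The other high peaks were at Rpl17 (score 21.35), Rps19 (17.64), Mrpl48 (17.09) and Mrpl13 (16.54). Of these genes only Mrpl48 passed the test. Of the 24 members with a peak and a known strand, 23 had it near a listed start, and for 6 of them, Rpl13a, Rpl34, Rps9, Mrpl30, Mrpl48 and Mrps16, a peak covered that start. Rpl4 was the exception, with its peak beyond the 3′ end (chr9:64179346-64179861), near Snapc5. The covered starts of Rps9 (chr7:3704041, gene from 3703954) and Mrpl48 (chr7:100607622, minus strand, gene end 100608301) lie inside the annotated genes. The peak of Mrpl48 was also within 2000 bp of an end of Rab6a. Further cytosolic members with a peak included Rpl14, Rpl21, Rpl28, Rpl30, Rpl35a, Rpl8, Rplp1, Rps12, Rps23 and Rps27a, and the mitochondrial ones were Mrpl11, Mrpl14, Mrpl36, Mrpl37, Mrpl40, Mrpl51, Mrps27, Mrps28, Mrps30, Mrps35 and Mrps6.

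The picrotoxin calls of members with and without a peak are given side by side, and their difference was not tested. Of the 18 cytosolic members with a peak 3 rose and none fell (Rpl4, Rpl8 and Rps27l), and of the 60 without 5 rose and 1 fell. Of the 16 mitochondrial members with a peak 1 rose (Mrps7) and 2 fell (Mrpl48 and Mrps27), and of the 59 without 9 rose and 1 fell. The median log2 fold changes with and without a peak were 0.15 and 0.14 for cytosolic members and 0.05 and 0.01 for mitochondrial members.

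**Figure D5:**
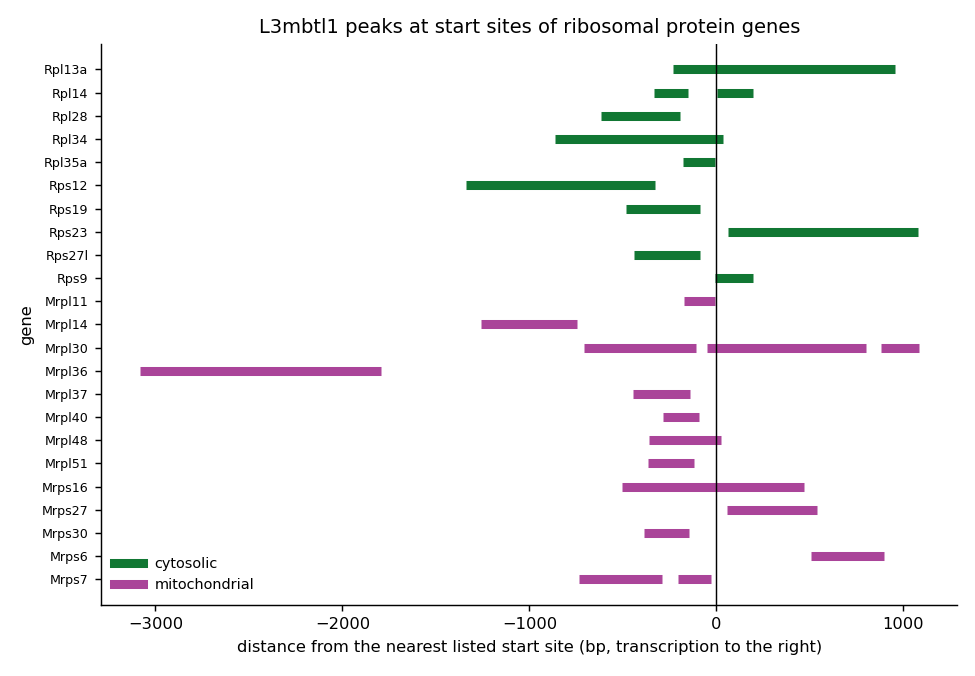
Extent of each L3mbtl1 peak (bars) along the distance in bp from the nearest listed start site (0; transcription runs to the right) for the 23 members with a strand and a peak near a start, cytosolic in green and mitochondrial in purple. Bars lie on both sides of the start, and those of 6 members cross it. The peak of Mrpl36 lies farthest from its listed start. It covers the annotated 5′ end of the gene, which lies upstream of that start, and so does the peak of Mrpl11.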

How the data were processed

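The deposited RNA-seq tables, 1 for each library, hold unnormalised counts of reads by Ensembl gene identifier. The libraries were made with ScriptSeq v2 from 15 ng of RNA without ribosomal RNA, per the labels. The submitters' processing notes name mm10 as the build and list Bowtie2 2.2.4, TopHat2 2.0.9, HTSeq 0.6.1 and CASAVA 1.8 as tools. Not given in the sources used here: strand setting and annotation release. Alignments at non-unique positions are tallied on a summary line of their own, per the deposited tables. Of 43629 identifiers 42462 matched a symbol. The 5 summary lines (19.9% to 26.8% of alignments outside genes, 15.2% to 20.5% not unique, 0.58% to 0.67% ambiguous) stayed out of library sizes and tests. The deposited peak list gives 1 score per peak, the authors' own, and names no sample, while the descriptions of all ChIP-seq samples name the list. How peaks were called and filtered, and what the score means, is likewise unknown here, and the score was used only within the list.

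The 4 CTRL and 4 PTX libraries, grouped by their titles, were compared with edgeR 4.0.16 in R 4.3.3: a quasi-likelihood F test with group as its term after TMM scaling and filterByExpr, and Benjamini-Hochberg adjustment over all tested genes, with 0.05 as the threshold. CPM used TMM-scaled sizes, and SE is the log2 fold change divided by the square root of F. Summaries, peaks and motifs were computed in Python 3.11.15 with pandas 2.3.3 and numpy 2.4.6. The fit was tested on simulated counts. No 2 libraries of a group were copies (smallest chi-square per degree of freedom 10.3). Deviations of same-numbered libraries from their group means correlated at 0.80, 0.59, 0.18 and 0.68 across genes. All are above 0.1, so a fit with the replicate number as a block is given where it changes a count or a call. The labels do not say what the numbers share, and CTRL 3 correlated more with PTX 4 (0.23) than with PTX 3. Alternatives were DESeq2 1.42.0, RLE factors, library totals alone, no filter, leaving out each library and leaving out both libraries numbered 1 or both numbered 2. Leaving out those numbered 2 was chosen after seeing the data. For peaks the window and score limit were varied, and for runs their length and place.

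Positions and promoters are those of RefSeq (GRCm38.p6), and distances are to the nearest start in its promoter table. The members, lists and motifs were chosen with earlier results of these data known, and the Ets, YY1, NRF1, E-box and TATA motifs after start sequences had been read, so lists get counts and medians, and no test. Named are the called members, the 3 of most counts and the 3 of largest change in a class, members with peaks, at the count limit or with paralogs, those known for roles outside the ribosome, up to 10 a class called only with the block, and the 3 called genes of smallest p in each other list. Results for some genes are not reported here.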

Additional observations from a re-analysis of the deposited data

Results flagged for a closer look

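Single libraries stood apart within their group, by a gap test on each group of 4, in 8 of the 118 groups tested (59 quantities in CTRL and PTX). Chance alone flags about 1 in 20 groups. PTX 2 had a mitochondrial share of 0.2615% of gene counts, against 0.2056% to 0.2083% elsewhere in PTX, and 64.81 CPM of Mrpl48, against 46.4 to 49.21 CPM. CTRL 2 had 280.6 CPM of Rpl26, against 241.4 to 246.1 CPM elsewhere in CTRL. Mrps36 was low in CTRL 1, with 14.45 CPM against 17.18 to 17.68 CPM, and low in PTX 3, with 21.3 CPM against 25.53 to 26.03 CPM. Mrps33 was at 29.49 CPM in PTX 4, against 27.19 to 27.58 CPM elsewhere in PTX. Mrps25 was at 77.19 CPM in CTRL 1, against 66.09 to 66.66 CPM, and Mrpl4 at 14.77 CPM in CTRL 4, against 12.68 to 13.03 CPM. Of these genes Mrps36 kept its call without any single library.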

How the results depend on the processing

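The count of called cytosolic members, 9, became 17 with DESeq2, 4 with library totals alone, 22 with the replicate block, 22 without both libraries numbered 1 and 3 to 26 when single libraries were left out. The count of mitochondrial members, 13, became 28 with the replicate block and ran from 9 to 22 with single libraries left out. The background moves with these settings too: 6443 of 15959 genes (40.4%) were called by DESeq2 and 31.6% to 38.4% with a library left out. The number of members with a peak, 34, fell to 15 with only peaks scoring at or above the median. The number with a pyrimidine run, 45, became 22 for runs of at least 8 bases and 94 for a start within 25 bases. The other 86 values of the main results kept their direction or moved by less than the spread between replicates or less than 1.5-fold. For single members 688 values kept their side of the threshold, 94 passed only under the alternative and 58 failed it, and no called member changed sign. The causes of these changes were not tested. At 4 against 4 libraries and a median SE of about 0.1 (log2), the members called without the block changed by 0.30 or more. Members with smaller changes did not pass there, and some with larger changes, such as Rpl24 (0.61) and Mrpl11 (-0.41), did not either. With the replicate block smaller changes passed, such as that of Rps23 (0.17).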
